A study of Mus musculus with 18 samples.

Results

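The genes described here are the Eph receptors, ephrins, semaphorins, plexins, neuropilins, netrins, netrin receptors, Slits and Robos of the mouse, a group known as axon guidance genes. They were chosen by gene symbol alone, and 70 of the 55385 genes in the deposited count table met the rule. They comprised 9 EphA and 5 EphB receptors, 5 A ephrins and 3 B ephrins, 7 class 3 and 13 membrane semaphorins, 9 plexins, 2 neuropilins, 4 netrins, 6 netrin receptors, 3 Slits and 4 Robos. Polyadenylated RNA was sequenced from gastruloids, which are aggregates of mouse pluripotent stem cells that elongate and lay down embryo-like tissue after a pulse of CHIR, which blocks the kinase GSK3 and so switches on Wnt signalling. All gastruloids were wild type, of strain 129/SVEV, and those of each condition were pooled in a tube before RNA extraction. Early gastruloids received CHIR between 24 and 48 h of culture, and control gastruloids received it between 48 and 72 h. Each arm was collected at 48, 72 and 96 h with 3 libraries per group, 18 in all. The early 48 h and control 72 h libraries were therefore taken as the pulse ended, the early 72 h and control 96 h libraries a day later, the early 96 h libraries a day after that, and the control 48 h libraries had not been treated.

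Eph receptors are tyrosine kinases that bind ephrins on the surface of a neighbouring cell. A ephrins are held by a lipid anchor and B ephrins span the membrane, and contact can signal into both cells, which in the embryo keeps cell groups apart and sets boundaries such as those between somites. Class 3 semaphorins are secreted and most act through a neuropilin bound to a plexin, whereas most membrane semaphorins bind plexins directly. Netrins bind Dcc and Neo1, which mediate attraction of growing axons, and Unc5 receptors, which mediate repulsion, and Slits repel cells and axons through Robo receptors. All of these families are also used outside the nervous system, in vessels, epithelia and migrating mesoderm.

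Each library held between 14841728 and 24536538 counts assigned to genes, and 16041 genes passed the low-count filter. Of the 70 guidance genes, 67 passed it. Epha6, Ntn5 and Plxnb3 did not pass, and together with Epha3, Robo3 and Sema3d they stayed under 1 CPM (counts scaled to library size with TMM factors) in each of the 6 group means, so 64 were taken as active. Sema3d lay just inside that limit, with 0.989 CPM in its highest group, and Unc5d just outside it, with 1.36 CPM. The control libraries numbered 3 stood apart. Set against the mates of their own group over all genes with enough counts, they gave a chi-square divided by its degrees of freedom between 15.4 and 28.1, against 1.41 to 7.90 for all other pairs within a group. For the named genes most affected, values without them are given below. The marker genes Pou5f1 of pluripotent cells and T of the primitive streak and tailbud were both present: Pou5f1 lay between 154 and 474 CPM at control 96 h and between 1210 and 1369 CPM elsewhere. T was at 37.2 to 45.4 CPM in early 48 h and 0.297 to 0.769 CPM in control 48 h libraries, and at 872 to 1263 CPM in control 72 h libraries. The labels do not say whether replicates came from separate cultures, so the p-values below measure only the spread between these libraries, which may be technical. Each gene had 1 estimate of spread shared by all 6 groups. The spread of the control libraries therefore also enters the p-values of comparisons between early groups. In pooled gastruloids, fewer cells of a type and less RNA per cell cannot be told apart.

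The guidance genes as a group were most abundant at control 96 h. They took 0.207 to 0.231% of all counts at early 96 h, against 0.320 to 0.335% at control 96 h. In the libraries taken as each pulse ended, the share was 0.160 to 0.169% at early 48 h and 0.236 to 0.239% at control 72 h. Among the 64 active genes, 44 had their highest group mean at control 96 h, 5 each at control 48 h and control 72 h, 4 each at early 48 h and early 72 h, and 2 at early 96 h. The lowest group mean fell at early 48 h for 27 of them and at control 48 h for 18. Over these 64 genes, the early 96 h libraries lay at a mean Euclidean distance of 3.82 log2 units from the control 72 h mean, 4.29 from the early 72 h mean and 13.1 from the control 96 h mean. On this measure early 96 h gastruloids were nearer to control gastruloids as their pulse ended than to control gastruloids of the same age. Averaged by group, libraries lay 0.966 to 3.49 from their own mean. Single libraries lay from 0.870 (control 48 h replicate 2) to 5.09 (control 96 h replicate 3) from it. The highest and lowest groups and the distances were not computed over all genes, so they may not be particular to guidance genes.

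**Figure D1:**
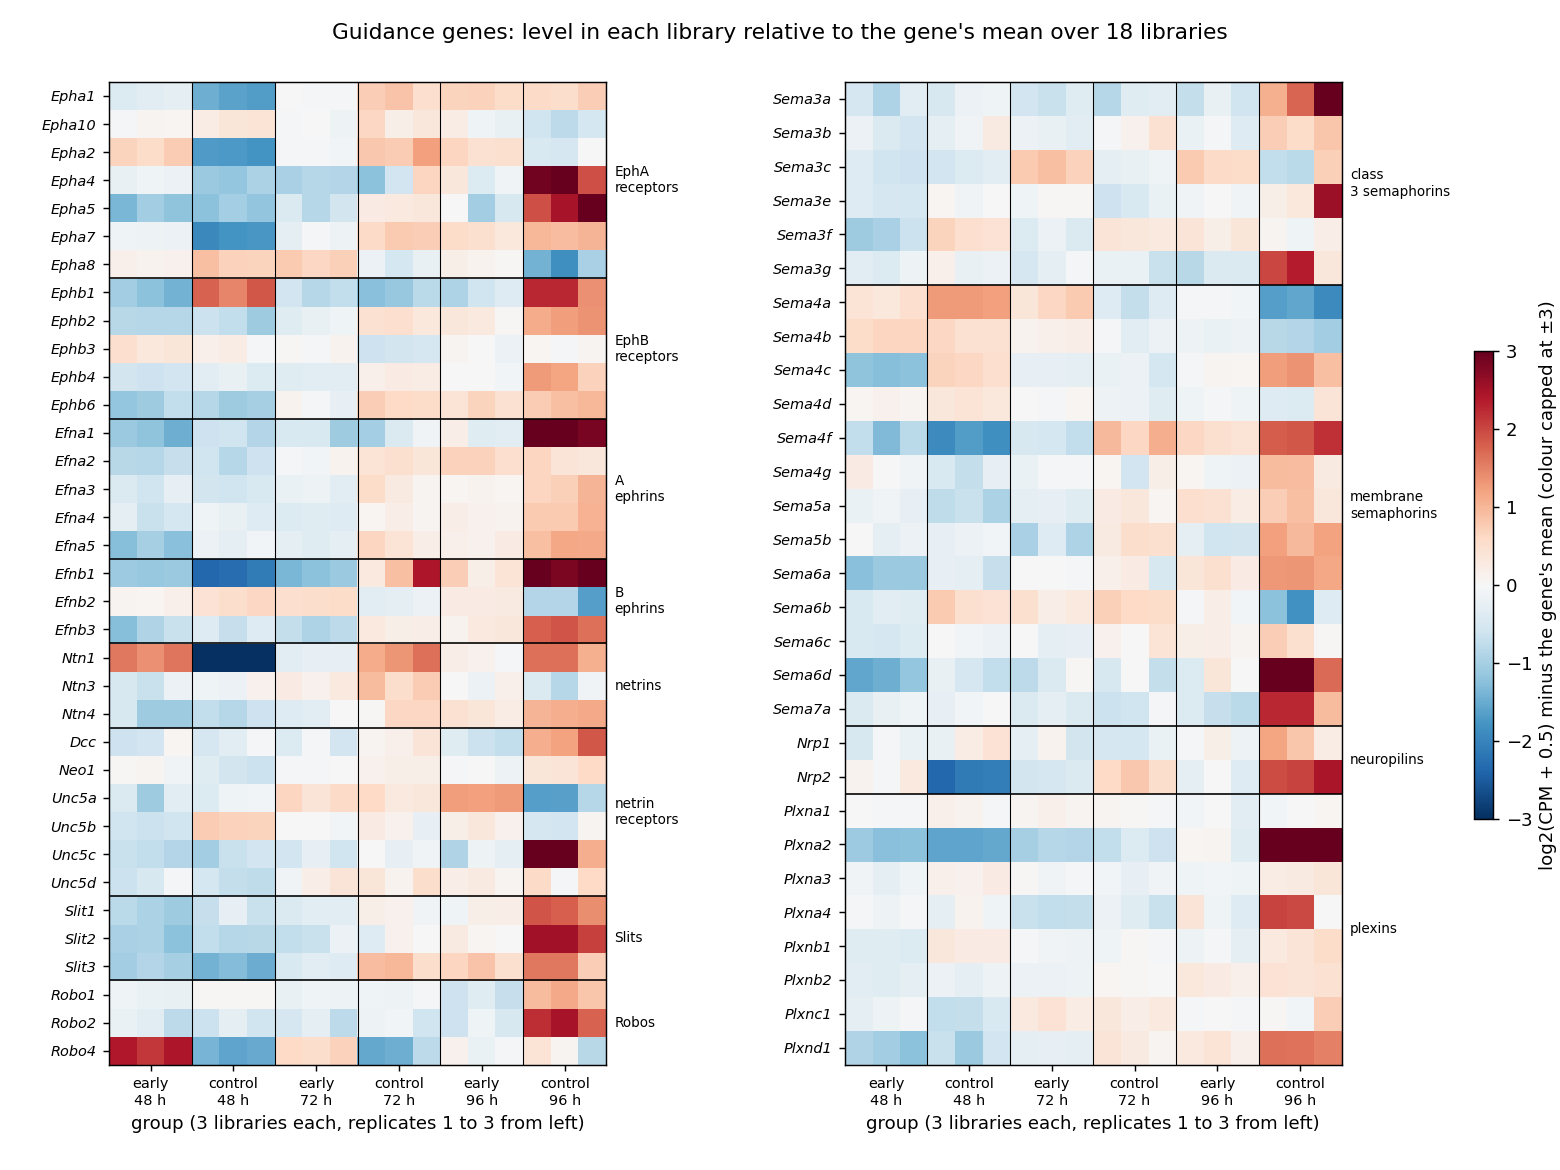
Level of each of the 64 active guidance genes in each of the 18 libraries, as log2(CPM + 0.5) minus the mean of the gene over all libraries, with genes in rows by family and libraries in columns, and colours capped at 3 log2 units either way. The 3 control 96 h columns hold many of the high values, and the highest group mean of 44 of the 64 genes lies there. The same share over all genes was not computed.

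The first comparison sets early gastruloids at the end of their pulse against untreated control gastruloids of the same age, 48 h. Receptors and ligands moved in both directions, led among genes with at least 2 CPM by Ntn1, Robo4, Nrp2 and Epha2 upwards and by Ephb1 downwards. Of the 67 guidance genes tested, 13 (19.4%) rose and 19 (28.4%) fell at an adjusted p under 0.05, against 23.0% and 20.7% of all genes tested. Changes of at least 2-fold were called for 15 of the 67 (22.4%), against 11.6% of all genes. The median log2 fold change, early over control, was -0.21 for the 67 and 0.02 for all genes tested. Of the streak and tailbud markers T, Mixl1, Cdx2 and Nkx1-2, 3 of 4 rose and none fell, with sums of 80.8 to 101 CPM in early 48 h and 2.42 to 3.16 CPM in control 48 h libraries, and their part in the guidance gene values was not tested. All calls here and below are from edgeR's quasi-likelihood test on counts, with Benjamini-Hochberg adjustment over the 16041 genes, and each log2 fold change is given with its standard error (SE).

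Among Eph receptors, Epha2, a receptor of epithelia and of the early embryo, had 261, 238 and 279 CPM in the early 48 h libraries, against 49.6, 48.8 and 47.0 CPM in the control 48 h libraries. The groups were far apart, and the log2 fold change was 2.42 ± 0.12 (adjusted p = 2.62e-11). Epha1 and Epha7, which bind A ephrins as Epha2 does, rose with it. Epha1 had 138, 146 and 152 CPM in early and 65.6, 59.4 and 57.0 CPM in control libraries, a log2 fold change of 1.26 ± 0.08 (adjusted p = 4.08e-10). Epha7 had 15.4, 15.2 and 14.9 CPM in early and 4.07, 4.50 and 4.68 CPM in control libraries, a log2 fold change of 1.78 ± 0.10 (adjusted p = 7.79e-11). Neither gene overlapped between the groups. Epha4, which in mouse is expressed in mesoderm and hindbrain segments, had 16.4 to 17.4 CPM in early and 8.21 to 9.68 CPM in control libraries, a log2 change of 0.94 ± 0.37 that passed the threshold narrowly (adjusted p = 0.0490) and lost its call under 20 of 29 alternative settings. Counting Epha4, 4 of the 8 EphA receptors tested rose and 2 fell.

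Ephb1, a receptor for B ephrins known in mouse for steering retinal axons at the optic chiasm, moved the other way. It had 1.21, 0.982 and 0.801 CPM in early 48 h libraries, against 11.5, 9.20 and 12.1 CPM in control 48 h libraries. The log2 fold change was -3.43 ± 0.27 (adjusted p = 7.93e-09), the largest fall of any guidance gene with at least 2 CPM in one of these groups. Ephb4, the partner receptor of Efnb2 in vessels, had a log2 change of -0.27 ± 0.10 (adjusted p = 0.0426, lost under 12 of 29 settings), and Ephb3 one of 0.28 ± 0.08 (adjusted p = 0.00904). The Ephb3 call was lost under 4 of 29 settings, among them leaving out early 48 h replicate 1 (0.22, adjusted p = 0.0617). Among ephrins, Efna5 fell, with 2.17, 2.76 and 2.23 CPM in early and 5.19, 4.90 and 5.58 CPM in control libraries (log2 -1.13 ± 0.15, adjusted p = 5.27e-06). Efnb2 fell by 0.43 ± 0.11 on the log2 scale (adjusted p = 0.00495). Efnb1 had 2.33 to 2.42 CPM in early and 0.713 to 0.962 CPM in control libraries, yet its change of 1.55 ± 0.64 missed the threshold (adjusted p = 0.0576), and it passed without the 3 control libraries numbered 3 (1.65, adjusted p = 0.000269).

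Ntn1, the netrin that attracts commissural axons in the spinal cord and is a secreted relative of laminin, showed the largest rise of all guidance genes. It had 94.1, 81.8 and 95.4 CPM in early 48 h libraries, against 0.917, 1.44 and 1.54 CPM in control 48 h libraries. Every early library was far above every control library, a 70.2-fold difference (log2 6.13 ± 0.22, adjusted p = 2.44e-13). Of its 6 receptors, 1 rose, 1 fell and 4 did not pass. Unc5b, a repulsive netrin receptor that mouse vessels also use, had 66.4, 64.7 and 66.9 CPM in early and 170, 164 and 161 CPM in control libraries (log2 -1.32 ± 0.13, adjusted p = 1.59e-07). Neo1, which also binds repulsive guidance molecules, rose by 0.52 ± 0.07 (adjusted p = 1.16e-05). The other 4 netrin receptors, Dcc, Unc5a, Unc5c and Unc5d, did not pass, and all 4 had at most 2.05 CPM in each of these libraries.

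None of the 3 Slits passed at 48 h, but without the 3 control libraries numbered 3 Slit3 was called higher (0.38, adjusted p = 0.00156) and Slit1 lower (-0.76, adjusted p = 0.0450). Robo4, the Robo known mainly from endothelium, had 12.9, 10.6 and 13.2 CPM in early 48 h libraries, against 0.458, 0.346 and 0.385 CPM in control 48 h libraries. All 3 early libraries were far above the controls, a 30.3-fold difference (log2 4.92 ± 0.32, adjusted p = 7.85e-10). Of the endothelial and blood marker genes Pecam1, Cdh5, Tie1, Tek, Emcn, Kdr, Gata1 and Tal1, 6 of 8 passed the low-count filter, 2 rose and 3 fell. Their summed level was 82.7 to 87.5 CPM in early and 29.7 to 37.4 CPM in control libraries, of which Pecam1 made up 71.9 to 77.8 CPM in early and 12.9 to 19.2 CPM in control libraries. The defining endothelial genes Cdh5 and Emcn were at or near 0, with at most 0.0989 CPM of Cdh5 and none of Emcn in any 48 h library. The part of the marker differences in the Robo4 value was not tested.

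Nrp2, the neuropilin that pairs with plexins to bind Sema3f and that also binds vascular growth factors, rose. It had 16.0, 14.4 and 18.4 CPM in early 48 h libraries, against 2.50, 3.02 and 3.14 CPM in control 48 h libraries (log2 2.50 ± 0.17, adjusted p = 1.17e-09). Its ligand Sema3f fell, with 2.66, 2.88 and 3.78 CPM in early and 10.0, 8.96 and 8.53 CPM in control libraries (log2 -1.57 ± 0.14, adjusted p = 6.09e-08). Neither gene overlapped between the groups. Among the 13 membrane semaphorins, 3 rose, 6 fell and 4 did not pass. Sema4c, a ligand of Plxnb2, fell furthest of those with at least 2 CPM, to 14.7, 14.2 and 14.5 CPM in early libraries, against 56.1, 53.9 and 49.6 CPM in control libraries (log2 -1.88 ± 0.11, adjusted p = 9.57e-11), and 7.3% of its exon bases are shared with another gene. Sema6b, Sema4a and Sema6a fell by 1.05, 0.91 and 0.78 on the log2 scale, and Sema4f rose by 1.15 ± 0.23 (adjusted p = 0.000635). Of the 8 plexins tested, 1 rose and 3 fell, among them Plxnb1, the receptor of Sema4d, by 0.66 ± 0.06 (adjusted p = 1.12e-07).

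The promoters of 3 of the 4 genes that rose most are shown because a TCF/LEF core, the sequence CTTTGA that factors downstream of Wnt signalling can bind, was found in each of them on one strand. They are RefSeq sequences of GRCm38.p6 from 250 bases before to 50 bases after the annotated start, at chr4:141300971-141301270 for Epha2, chr1:62703067-62703366 for Nrp2 and chr9:37401722-37402021 for Robo4, all on the forward strand, and capitals mark the core, which reads TCAAAG where it lies on the reverse strand.
Epha2: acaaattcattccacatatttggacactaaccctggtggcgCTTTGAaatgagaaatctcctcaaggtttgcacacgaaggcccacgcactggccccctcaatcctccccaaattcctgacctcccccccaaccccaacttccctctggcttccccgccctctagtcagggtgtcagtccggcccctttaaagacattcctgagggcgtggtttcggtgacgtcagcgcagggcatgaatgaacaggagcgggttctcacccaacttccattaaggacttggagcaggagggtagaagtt
Nrp2: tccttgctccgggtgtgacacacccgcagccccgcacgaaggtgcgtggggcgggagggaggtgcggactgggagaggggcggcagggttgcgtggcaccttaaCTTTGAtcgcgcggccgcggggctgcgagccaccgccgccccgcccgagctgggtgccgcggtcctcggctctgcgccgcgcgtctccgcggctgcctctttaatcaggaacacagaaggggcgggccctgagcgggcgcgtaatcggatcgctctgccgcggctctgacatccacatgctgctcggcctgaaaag
Robo4: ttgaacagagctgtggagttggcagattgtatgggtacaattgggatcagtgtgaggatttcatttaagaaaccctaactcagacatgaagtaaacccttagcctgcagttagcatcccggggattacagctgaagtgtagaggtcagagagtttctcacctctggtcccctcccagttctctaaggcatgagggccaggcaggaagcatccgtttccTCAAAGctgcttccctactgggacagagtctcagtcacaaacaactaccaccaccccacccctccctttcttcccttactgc
The core starts 209 bases before the start in Epha2, 146 before it in Nrp2 and 32 before it in Robo4. Among the 76 promoters found for 60 of the 70 guidance genes, 5 (6.58%) hold it, those of Sema3e and Sema6d being the others, against 5257 of 32851 promoters (16.0%) in all, so the share among guidance genes was below that of promoters at large. Sema6d was lower at early 48 h than at control 48 h (group means 0.224 and 0.868 CPM, a call lost under 8 of 29 settings). Sema3e had 13.6 and 18.9 CPM and did not pass (log2 -0.48, adjusted p = 0.419). It was called lower without the 3 control libraries numbered 3 (-0.48, adjusted p = 5.91e-05). A T-box motif, AGGTGTGA on either strand, was found in 1 of the 76 (1.32%), that of Sema4a, against 419 promoters (1.3%) in all. No entry was matched for Ntn1. These are matches of letters, and binding was not measured.

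**Figure D2:**
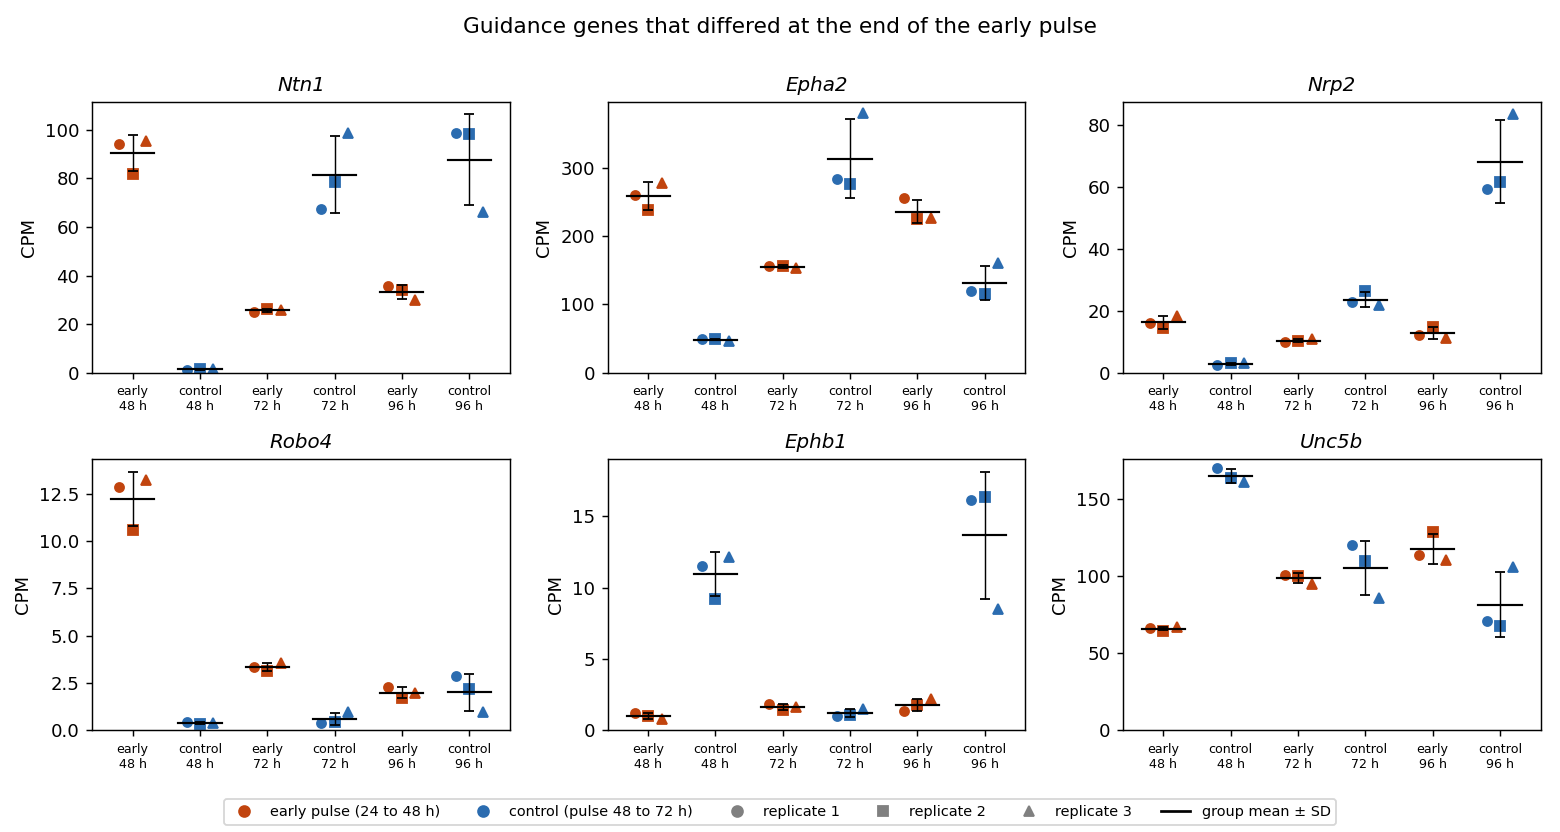
CPM of Ntn1, Epha2, Nrp2, Robo4, Ephb1 and Unc5b in each library on linear axes, with early left of control at each age, points for libraries and bars for the group mean ± SD (n = 3). Ntn1, Epha2, Nrp2 and Robo4 are high and Ephb1 and Unc5b low in the early 48 h libraries relative to control 48 h.

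The later pulse, given to control gastruloids between 48 and 72 h, was read by setting control 72 h against control 48 h, so that here the pulse and a day of culture come together. Ntn1, Nrp2 and Epha2 rose and Ephb1 fell, Robo4 did not pass, and most ephrins and all Slits rose. Of the 67, 32 (47.8%) rose and 14 (20.9%) fell, against 31.1% and 30.3% of all genes tested. The median log2 fold change was 0.51, against 0.01 for all genes tested. All 4 streak and tailbud markers rose, to sums of 1362 to 1745 CPM at control 72 h, and their part in the guidance gene values was not tested. This comparison shares the control 48 h libraries with the one before, so the values are set side by side and the overlap is not counted.

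Ntn1 had 67.3, 78.6 and 98.9 CPM at control 72 h, a log2 fold change of 5.98 ± 0.22 over control 48 h (adjusted p = 1.32e-13), beside 6.13 at the end of the early pulse. Nrp2 had 22.8, 26.3 and 21.8 CPM (log2 3.04 ± 0.17, adjusted p = 2.55e-11) and Epha2 284, 278 and 381 CPM (log2 2.69 ± 0.12, adjusted p = 2.37e-12). Ephb1 was at 0.959, 1.09 and 1.495 CPM, a fall of 3.22 ± 0.26 on the log2 scale (adjusted p = 6.35e-09). None of the 4 overlapped control 48 h. Robo4 had 0.373, 0.417 and 0.975 CPM at control 72 h, which overlapped control 48 h (log2 0.51 ± 0.49, adjusted p = 0.382).

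Among the ephrins, 4 of 5 A ephrins and 2 of 3 B ephrins rose. Efnb1 had 7.14, 11.2 and 33.3 CPM at control 72 h, against under 1 CPM at control 48 h, with replicate 3 far above its mates. Its log2 fold change was 4.37 ± 0.50 (adjusted p = 4.54e-07) and 3.47 without that library. Efnb2 fell by 0.81 ± 0.12 (adjusted p = 7.38e-06). Epha4 had 7.83, 12.6 and 30.1 CPM at control 72 h and overlapped control 48 h, and its call (log2 0.91, adjusted p = 0.0439) was lost without control 72 h replicate 3 (0.21, adjusted p = 0.588). All 3 Slits rose, led by Slit3 with 98.1, 103 and 74.1 CPM at control 72 h, against 18.9, 20.3 and 17.8 CPM at control 48 h (log2 2.27 ± 0.18, adjusted p = 4.49e-09). Sema4f rose by 3.16 ± 0.20 and Sema4a fell by 1.98 ± 0.15 on the log2 scale.

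The 2 pulses can also be set against each other at their ends, early 48 h over control 72 h, where the age differs by a day. Of the 67, 7 (10.4%) were higher and 38 (56.7%) lower at early 48 h, against 29.5% and 31.7% of all genes tested. Ntn1 differed by 0.15 ± 0.14 on the log2 scale and did not pass (adjusted p = 0.347), but was called without the 3 control libraries numbered 3 (0.31, adjusted p = 0.000437). Epha2 differed by -0.28 ± 0.11, a call lost under 11 of 29 settings, among them leaving out those same libraries (-0.11, adjusted p = 0.0776). Robo4 was 4.42 ± 0.31 log2 units higher at early 48 h (adjusted p = 9.84e-10), and Sema4a, Ephb3 and Sema4b were higher by 1.07, 0.98 and 0.81. All 5 A ephrins and all 3 Slits were lower at early 48 h. All 4 streak and tailbud markers were lower as well, with sums of 80.8 to 101 CPM at early 48 h and 1362 to 1745 CPM at control 72 h, and 5 of the 6 endothelial and blood markers tested were higher, with sums of 82.7 to 87.5 CPM at early 48 h and 8.55 to 14.1 CPM at control 72 h. Pecam1 made up 71.9 to 77.8 CPM of the endothelial and blood sums at early 48 h and 5.055 to 10.4 CPM at control 72 h. Cdh5 and Emcn were at or near 0 in these libraries. The part of the streak, tailbud, endothelial and blood markers in these values was not tested. Efnb1 differed by -2.82 ± 0.41 on the log2 scale (adjusted p = 1.15e-05), or -1.94 without control 72 h replicate 3, Slit3 by -1.83 ± 0.18 and Efna5 by -1.80 ± 0.14. The Efna1 call (-1.05 ± 0.37, adjusted p = 0.0190) was lost without control 72 h replicate 3 (-0.79, adjusted p = 0.0979), control 72 h replicate 2 (-1.01, adjusted p = 0.0504) or early 48 h replicate 3 (-0.91, adjusted p = 0.0688). Ephb6 and Plxnd1, the plexin that binds Sema3e, differed by -1.73 and -1.43.

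What followed when the pulse ended differed between the arms. A day after the early pulse, at 72 h over 48 h, 25 of the 67 (37.3%) rose and 7 (10.4%) fell, against 20.7% and 21.9% of all genes tested, and 6 (8.96%) rose and 2 (2.99%) fell by at least 2-fold, against 5.8% and 2.8% of all genes. The 4 genes that had led the rise during the pulse all came down. Robo4 had 3.32, 3.14 and 3.58 CPM at early 72 h, below all early 48 h libraries (log2 -1.87 ± 0.24, adjusted p = 6.51e-06). Ntn1 had 25.0, 26.1 and 26.0 CPM (log2 -1.81 ± 0.14, adjusted p = 4.39e-08), and Epha2 157, 156 and 153 CPM (log2 -0.74 ± 0.11, adjusted p = 5.48e-05). Nrp2 fell by 0.65 ± 0.14 on the log2 scale, to 9.92, 10.3 and 10.8 CPM (adjusted p = 0.00114). Each of these 4 genes was still above its control 48 h libraries. Sema3c, Unc5a, Sema6a, Sema4c, Ephb6 and Efna5 rose, by 1.46, 1.35, 1.16, 1.01, 1.00 and 0.99 on the log2 scale.

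A day after the later pulse, at control 96 h over control 72 h, 44 of the 67 (65.7%) rose and 11 (16.4%) fell, against 27.5% and 27.4% of all genes tested. Rises of at least 2-fold were called for 27 (40.3%), against 8.41% of all genes, and the median log2 fold change was 0.66, against -0.01 for all genes tested. Of the presomitic and somite markers Tbx6, Msgn1, Dll1, Meox1 and Tcf15, 4 of 5 rose, with sums of 352 to 900 CPM at control 96 h, lowest in replicate 3, and 8.85 to 17.3 CPM at control 72 h. Their part in the guidance gene values was not tested. Plxna2, a plexin that serves both class 3 semaphorins and Sema6a, had 276, 311 and 85.1 CPM at control 96 h, against 5.38, 6.88 and 5.85 CPM at control 72 h (log2 5.21 ± 0.35, adjusted p = 9.45e-10). Efna1, an A ephrin that binds Epha2, had 35.6, 39.6 and 23.2 CPM, against 1.12, 1.93 and 2.53 CPM (log2 4.16 ± 0.25, adjusted p = 2.17e-10). Both genes were far above every control 72 h library in all 3 control 96 h libraries, and replicate 3 was the lowest of the 3 for both. Ephb1 rose by 3.55 ± 0.26 on the log2 scale, Sema6d by 3.76 ± 0.40, Slit2 by 2.60 ± 0.17 and Epha4 by 2.93 ± 0.33, the last by 3.63 without control 72 h replicate 3. Efnb1 rose by 1.5 ± 0.32, or 2.39 without that library. Ntn1 did not pass (0.11 ± 0.13, adjusted p = 0.512), and it was called without the 3 control libraries numbered 3 (0.44, adjusted p = 2.05e-05).

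A smaller set fell at control 96 h relative to control 72 h. Unc5a, a repulsive netrin receptor, had 0.366, 0.380 and 0.998 CPM at control 96 h, against 3.57, 2.81 and 2.92 CPM at control 72 h (log2 -2.48 ± 0.30, adjusted p = 1.19e-06). Sema6b, Sema4a, Ntn3, Epha10, Epha8, Epha2 and Efnb2 fell by 1.87, 1.69, 1.33, 1.33, 1.25, 1.25 and 0.82 on the log2 scale. Epha2, high at the end of both pulses, thus came down a day after each of them.

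Whether the day after the pulse differed between arms was tested as the early 72 h over early 48 h change minus the control 96 h over control 72 h change. That day ran from 48 to 72 h in the early arm and from 72 to 96 h in the control arm, so arm and age cannot be told apart. Of the 67, 16 (23.9%) had a higher and 31 (46.3%) a lower change in the early arm, against 22.8% and 21.7% of all genes tested. The median difference was -0.44 log2 units, against -0.01 for all genes. The 5 largest among called genes with at least 5 CPM in 1 of the 4 groups of this test were Plxna2 at -4.91 ± 0.63 (adjusted p = 5.56e-06), Sema3a at -4.80 ± 1.72 (adjusted p = 0.0299), Robo4 at -3.73 ± 0.43 (adjusted p = 1.40e-06), Epha4 at -3.69 ± 0.49 (adjusted p = 7.35e-06) and Efna1 at -3.26 ± 0.48 (adjusted p = 2.50e-05). Sema3a, a secreted repellent that binds Nrp1, depended on 1 library: control 96 h replicate 3 had 24.1 CPM, against 1.99 and 3.48 CPM in its mates, and without it the difference was -2.96. Robo4 fell in the early arm and rose by 1.86 ± 0.36 in the control arm, with overlap there (2.69 without the 3 control libraries numbered 3), whereas Plxna2 did not pass in the early arm (0.31 ± 0.48, adjusted p = 0.643) and rose by 5.21 in the control arm. On the other side stood Unc5a, under 5 CPM in those groups, at 3.83 ± 0.39 (adjusted p = 3.49e-07). Without the 3 control libraries numbered 3, the difference was -4.56 for Robo4, -4.63 for Epha4 and 4.42 for Unc5a.

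The levels a day after each pulse were also compared, early 72 h over control 96 h, which are a day of age apart. Of the 67, 10 (14.9%) were higher and 47 (70.1%) lower, against 34.3% and 35.4% of all genes tested, and 36 (53.7%) were lower by at least 2-fold, against 13.3% of all genes. All 5 A ephrins, all 3 Slits and 6 of 8 plexins were lower at early 72 h. So were all 4 streak and tailbud markers, with sums of 82.1 to 82.4 CPM at early 72 h and 1716 to 1872 CPM at control 96 h, and 4 of the 5 presomitic and somite markers, with sums of 19.9 to 20.1 CPM and 352 to 900 CPM in those groups. All 3 pluripotency markers were higher, with sums of 1675 to 1697 CPM at early 72 h and 305 to 577 CPM at control 96 h. The part of these markers in the guidance gene values was not tested. Plxna2 differed by -5.57 ± 0.36, Efnb1 by -4.47 ± 0.40 and Efna1 by -4.32 ± 0.25 on the log2 scale. Epha5 differed by -5.54 ± 0.78, or -3.82 without control 96 h replicate 3, and Robo2 by -4.84 ± 0.52, or -5.82 without early 72 h replicate 2. Sema4a, Unc5a, Epha8 and Efnb2 were higher at early 72 h, by 2.95, 2.62, 2.33 and 1.64. The Robo4 call (0.69, adjusted p = 0.0297) was lost without control 96 h replicate 3 (0.38, adjusted p = 0.103).

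At the same age of 72 h, early over control, the control libraries being at the end of their pulse, 7 of the 67 (10.4%) were higher and 29 (43.3%) lower, against 21.7% and 23.2% of all genes tested. The median log2 fold change was -0.44, against -0.02 for all genes tested. All 3 netrins tested, all 3 Slits, 4 of 5 A ephrins and 4 of 8 EphA receptors were lower in early gastruloids. All 4 streak and tailbud markers were lower too, with sums of 82.1 to 82.4 CPM at early 72 h and 1362 to 1745 CPM at control 72 h, and their part in the guidance gene values was not tested. Ntn1 had 25.0, 26.1 and 26.0 CPM at early 72 h, against 67.3, 78.6 and 98.9 CPM at control 72 h (log2 -1.66 ± 0.14, adjusted p = 4.89e-08). Slit3 had 37.2, 40.2 and 38.7 CPM, against 98.1, 103 and 74.1 CPM (log2 -1.25 ± 0.17, adjusted p = 9.84e-06). Neither overlapped between the arms. Efnb1 differed by -2.97 ± 0.41 (adjusted p = 1.39e-05), or -2.08 without control 72 h replicate 3, Sema4f by -1.61, Sema5b by -1.27, Nrp2 by -1.20, Efnb3 by -1.14 and Epha2 by -1.01.

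Fewer were higher at early 72 h. Robo4 had 3.32, 3.14 and 3.58 CPM in early and 0.373, 0.417 and 0.975 CPM in control libraries, a log2 fold change of 2.54 ± 0.34 (adjusted p = 8.76e-06), with no overlap. Of the endothelial and blood markers 4 of the 6 tested were higher. Their sums were 37.2 to 41.3 CPM in early and 8.55 to 14.1 CPM in control libraries. Pecam1 made up 29.1 to 33.1 CPM of these sums in early and 5.055 to 10.4 CPM in control libraries, and Cdh5 and Emcn were at or near 0. The part of these markers in the Robo4 value was not tested. Sema4a, Sema3c, Epha8, Efnb2, Ephb3 and Sema4b were higher by 1.26, 1.09, 1.07, 0.81, 0.61 and 0.34 on the log2 scale. The calls for Slit1 (-0.58, adjusted p = 0.0427) and Slit2 (-0.51, adjusted p = 0.0443) were weak, being lost under 13 and 19 of 29 settings, and Slit2 overlapped between the arms.

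At 96 h most of the guidance genes that differed between the arms were lower in early gastruloids, across nearly all families. Of the 67, 11 (16.4%) were higher and 43 (64.2%) lower in early gastruloids, against 29.5% and 29.6% of all genes tested, and 29 (43.3%) were lower by at least 2-fold, against 8.81% of all genes. The median log2 fold change was -0.76, against -0.01 for all genes tested. Lower calls were made for 4 of 5 EphB receptors, 4 of 5 A ephrins, 2 of 3 B ephrins, 4 of 7 class 3 semaphorins, 8 of 13 membrane semaphorins, 6 of 8 plexins, both neuropilins and all 3 Slits. EphA receptors were split, with 3 higher and 3 lower of 8. The call for Nrp1, a neuropilin for class 3 semaphorins, was lost without control 96 h replicate 1 (-0.74, adjusted p = 0.0566). The early and control groups at this age also differed in cell type markers. Of the presomitic and somite markers, 4 of 5 were lower and 1 higher in early gastruloids, and their sum was 7.34 to 10.2 CPM at early 96 h, against 352 to 900 CPM at control 96 h. Meox1 was at 0 in 2 of the 3 early 96 h libraries and Msgn1 had at most 0.166 CPM in them. Of the pluripotency markers Pou5f1, Nanog and Sox2, 2 of 3 were higher, with sums of 1699 to 1788 CPM at early 96 h and 305 to 577 CPM at control 96 h. The part of these marker differences in the guidance gene values was not tested.

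**Figure D3:**
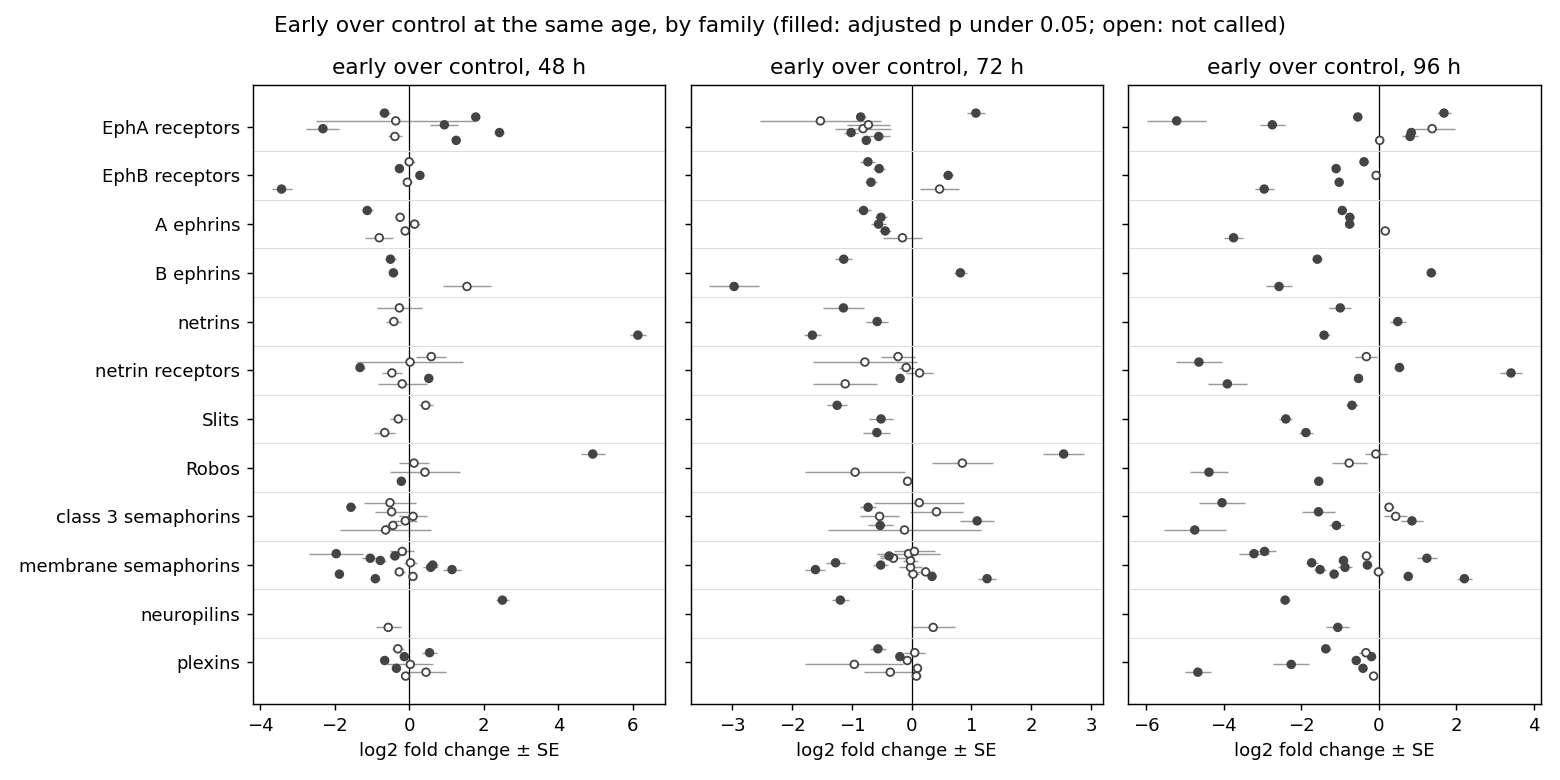
Log2 fold change, early over control, ± SE for the guidance genes at 48, 72 and 96 h, grouped by family, with filled points for adjusted p under 0.05. Most filled points lie below 0 at 96 h, where 43 of the 67 tested were lower and 11 higher.

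Eph receptors and ephrins included some of the widest differences. Epha4 had 24.4, 14.3 and 17.7 CPM at early 96 h, against 144, 157 and 73.9 CPM at control 96 h (log2 -2.74 ± 0.32, adjusted p = 8.05e-07). Ephb1 had 1.33, 1.80 and 2.19 CPM, against 16.1, 16.3 and 8.48 CPM (log2 -2.95 ± 0.24, adjusted p = 7.67e-09). For both genes the lowest control library was replicate 3, and it was still above all early libraries. Efna1 had 3.26, 2.04 and 2.08 CPM at early 96 h, against 35.6, 39.6 and 23.2 CPM at control 96 h (log2 -3.74 ± 0.24, adjusted p = 3.16e-10). Efnb1, whose mutation in mouse and human disturbs the facial skeleton, had 9.89, 6.58 and 7.80 CPM, against 49.1, 44.0 and 50.5 CPM (log2 -2.57 ± 0.34, adjusted p = 3.67e-06). Neither ephrin overlapped between the arms, and Efnb3 differed by -1.58 ± 0.13. Epha5 had 0.939, 0.189 and 0.520 CPM at early 96 h, against 4.96, 7.33 and 48.7 CPM at control 96 h. Its log2 fold change of -5.21 ± 0.76 rested largely on control 96 h replicate 3: it was -3.49 without it, and -5.85 without early 96 h replicate 1.

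Among the Eph genes that were higher, Epha2 had 256, 225 and 227 CPM at early 96 h, against 119, 116 and 161 CPM at control 96 h (log2 0.84 ± 0.11, adjusted p = 5.04e-06). Efnb2, the ephrin that in the embryo marks arteries, had 66.5, 65.9 and 67.7 CPM, against 29.9, 29.9 and 17.5 CPM (log2 1.36 ± 0.12, adjusted p = 2.28e-08). Epha8 had 6.96, 6.58 and 6.24 CPM, against 1.99, 1.36 and 2.87 CPM (log2 1.69 ± 0.18, adjusted p = 2.05e-07). The 3 genes did not overlap between the arms. Epha1 had 292, 298 and 271 CPM at early 96 h and 275, 265 and 304 CPM at control 96 h, and its change of 0.03 ± 0.07 did not pass (adjusted p = 0.763).

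The netrin receptors split by member. Unc5a had 5.91, 5.87 and 6.01 CPM at early 96 h, against 0.366, 0.380 and 0.998 CPM at control 96 h, 10.7-fold higher (log2 3.42 ± 0.28, adjusted p = 7.05e-09). Unc5c, its close relative, had 0.0553, 0.426 and 0.346 CPM, against 9.75, 9.77 and 1.68 CPM (log2 -4.64 ± 0.59, adjusted p = 2.23e-06). The pair thus differed in opposite directions, with no overlap in either gene, and replicate 3 was the control library nearest to the early ones for both. Unc5b was higher by 0.54 ± 0.13, and Dcc, at or under 2.87 CPM throughout, differed by -3.90 ± 0.51, or -4.53 without early 96 h replicate 1. Ntn1 had 35.6, 34.0 and 29.8 CPM at early 96 h, against 98.6, 98.4 and 66.1 CPM at control 96 h (log2 -1.41 ± 0.14, adjusted p = 1.23e-07).

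All 3 Slits and 2 of the 4 Robos were lower in early gastruloids. Slit2 had 5.08, 4.31 and 4.16 CPM at early 96 h, against 26.1, 26.1 and 18.9 CPM at control 96 h (log2 -2.39 ± 0.17, adjusted p = 1.08e-09). Robo1, a main Slit receptor, had 28.1, 34.0 and 26.9 CPM, against 84.8, 96.6 and 78.5 CPM (log2 -1.54 ± 0.08, adjusted p = 1.67e-11). Robo2, also a main Slit receptor, had 0.0553, 0.284 and 0.116 CPM, against 3.50, 4.29 and 2.43 CPM (log2 -4.38 ± 0.50, adjusted p = 5.83e-07; -5.22 without early 96 h replicate 2). None of the 3 overlapped between the arms. Slit1 differed by -1.88 ± 0.19 and Slit3 by -0.69 ± 0.16, with overlap for Slit3. Robo4 had 2.27, 1.71 and 1.96 CPM at early 96 h and 2.89, 2.17 and 0.935 CPM at control 96 h, and its change of -0.07 ± 0.29 did not pass.

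Among semaphorin receptors, Plxna2 had 9.61, 9.76 and 7.05 CPM at early 96 h, against 276, 311 and 85.1 CPM at control 96 h (log2 -4.66 ± 0.34, adjusted p = 1.51e-09). Nrp2 had 12.3, 14.8 and 11.2 CPM, against 59.5, 61.6 and 83.7 CPM (log2 -2.41 ± 0.13, adjusted p = 3.78e-11). Both were separated by a wide gap, with control replicate 3 the lowest of its group for Plxna2 and the highest for Nrp2. Of the ligands, Sema6d had 0.939, 1.94 and 1.39 CPM at early 96 h, against 15.4, 18.9 and 5.67 CPM at control 96 h (log2 -3.22 ± 0.38, adjusted p = 8.32e-07). Sema3a had 0.221, 0.521 and 0.289 CPM, against 1.99, 3.48 and 24.1 CPM (log2 -4.74 ± 0.81, adjusted p = 5.92e-05; -2.90 without control 96 h replicate 3). Sema3e, the ligand of Plxnd1, had 17.6, 18.9 and 17.7 CPM, against 21.5, 23.9 and 116 CPM. The Sema3e difference was -1.55 ± 0.42 on the log2 scale (adjusted p = 0.00376) and -0.32 without control 96 h replicate 3, and its call was lost under 4 of 29 settings. That library also stood apart in the neural marker Sox1, with 1.91, 1.575 and 14.6 CPM at control 96 h. It did so little in the other 2 neural markers. Pax6 had 1.10, 0.543 and 1.37 CPM there, and Neurog2 2.07, 3.095 and 3.93 CPM. Of these 3 markers, 2 were lower in early gastruloids. The sum of the 3 was 1.94 to 3.52 CPM at early 96 h and 5.08, 5.21 and 19.9 CPM at control 96 h, with Neurog2 at 0 in 2 early libraries. Their part in the values of Epha5, Sema3a and Sema3e was not tested. Sema7a, a lipid-anchored semaphorin, differed by -2.94 ± 0.30 and Sema3g by -4.04 ± 0.58. Sema4a, with 3.15, 3.08 and 3.00 CPM at early 96 h and 0.691, 0.760 and 0.499 CPM at control 96 h, was higher by 2.21 ± 0.19 (adjusted p = 1.87e-08), and Sema6b and Sema4b by 1.24 and 0.76. Sema3c was higher by 0.86 ± 0.28 with overlap, and by 1.59 without control 96 h replicate 3, while the call was lost without control 96 h replicate 1 (0.57, adjusted p = 0.0903), control 96 h replicate 2 (0.60, adjusted p = 0.0790) or early 96 h replicate 1 (0.77, adjusted p = 0.0512).

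**Figure D4:**
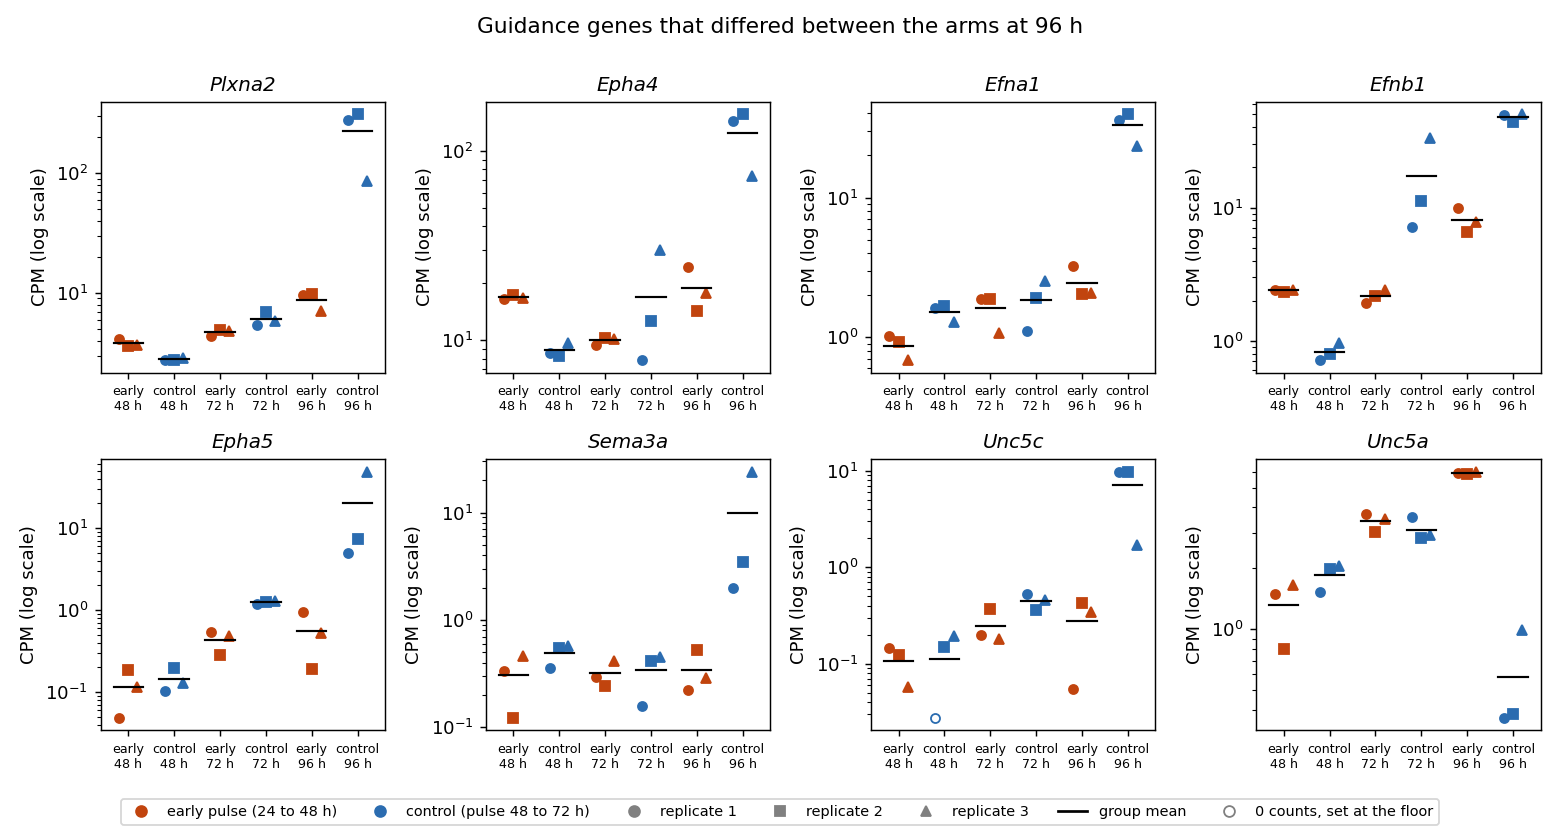
CPM on log axes of Plxna2, Epha4, Efna1, Efnb1, Epha5, Sema3a, Unc5c and Unc5a in each library, with early left of control at each age, symbols for replicates, bars for group means and an open symbol at the axis floor for the library with 0 counts. At 96 h Unc5a is higher in all early than in all control libraries, and the other 7 genes are lower.

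Between 72 and 96 h the early arm showed mostly small rises. At early 96 h over early 72 h, 24 of the 67 (35.8%) rose and 6 (8.96%) fell, against 17.6% and 17.6% of all genes tested, and 5 (7.46%) rose by at least 2-fold, against 2.62% of all genes. Efnb1 rose by 1.90 ± 0.44, Sema4f by 1.19 ± 0.17, Efnb3 by 1.17 ± 0.14, Slit3 by 1.07 ± 0.17 and Unc5a by 0.80 ± 0.21 on the log2 scale. Epha1 and Epha2 rose by 0.69 and 0.60, to 292, 298 and 271 CPM for Epha1 and 256, 225 and 227 CPM for Epha2. T, at 21.9 to 26.9 CPM in early 72 h libraries, was at 478 to 642 CPM in early 96 h libraries, and the part of this in the guidance gene values was not tested. Sema4a, Epha8, Robo1, Sema4b and Plxna1 fell by 0.74, 0.64, 0.38, 0.32 and 0.24. The Plxna1 call was lost under 6 of 29 settings, among them leaving out early 72 h replicate 2 (-0.22, adjusted p = 0.0540) or early 96 h replicate 3 (-0.15, adjusted p = 0.0660). The Robo4 fall (-0.76, adjusted p = 0.0379) was lost under 10 of 29 settings.

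The change of the arm difference with age was tested as early over control at 96 h minus early over control at 72 h. It shares the control 96 h over control 72 h change with the interaction over the day after the pulse. Genes that lead in both are therefore not independent results. Of the 67, 14 (20.9%) were higher and 27 (40.3%) lower, against 17.8% and 15.7% of all genes tested, and the median was -0.34, against 0.02 for all genes. The 5 largest by the same measure, over the 4 groups of this test, were Sema3a at -4.62 ± 1.65 (adjusted p = 0.0386; -2.79 without control 96 h replicate 3), Plxna2 at -4.30 ± 0.57 (adjusted p = 1.24e-05), Unc5c at -3.85 ± 1.19 (adjusted p = 0.0179), Efna1 at -3.59 ± 0.40 (adjusted p = 2.17e-06) and Ephb1 at -3.42 ± 0.40 (adjusted p = 3.43e-06). The Unc5c call was lost without early 72 h replicate 2 (-3.42, adjusted p = 0.112). Plxna2, Efna1 and Ephb1 did not differ past the threshold between the arms at 72 h (adjusted p = 0.543, 0.723 and 0.252). Without the 3 control libraries numbered 3, Plxna2 was called lower (-0.36, adjusted p = 0.0470) and Ephb1 higher (0.66, adjusted p = 0.0465) in early gastruloids at that age. Unc5a stood on the other side at 3.29 ± 0.37 (adjusted p = 1.84e-06; 3.87 without those libraries), and so did Epha2 at 1.86 ± 0.16 (adjusted p = 9.31e-08), which was lower in early gastruloids at 72 h and higher at 96 h. Ntn1 was lower in the early arm at both ages, and its difference between ages did not pass (0.26 ± 0.20, adjusted p = 0.355).

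Other genes of the guidance pathways, 47 chosen as co-receptors, modulators and cytoplasmic effectors, were read in the same fit, and 45 were tested. At 48 h, early over control, 4 of the 45 were higher and 19 lower, against 23.0% and 20.7% of all genes tested. Rgma, a ligand of Neo1, had 10.0, 10.7 and 11.3 CPM in early and 3.31, 3.22 and 4.23 CPM in control libraries (log2 1.58 ± 0.30, adjusted p = 0.000339). Cntn2, an axonal adhesion molecule, differed by -1.93 ± 0.26, the kinase gene Pak3 by -1.59 ± 0.11 and Dpysl3, of the collapsin response mediator family, by -1.39 ± 0.17. At 72 h 3 were higher and 18 lower, against 21.7% and 23.2% of all genes. At 96 h 5 were higher and 30 lower, against 29.5% and 29.6% of all genes. Draxin, a secreted protein that binds Dcc and netrin, had 2.87, 3.03 and 1.68 CPM at early 96 h, against 32.3, 36.3 and 16.0 CPM at control 96 h (log2 -3.47 ± 0.27, adjusted p = 3.77e-09). Rgma, higher in early gastruloids at 48 h, had 15.7, 14.9 and 13.7 CPM at early 96 h, against 131, 120 and 155 CPM at control 96 h (log2 -3.19 ± 0.22, adjusted p = 9.29e-10). Cntn2, lower in early gastruloids at 48 h, was higher by 2.28 ± 0.26 in them at 96 h (adjusted p = 6.83e-07). The difference between 48 and 96 h was not tested for either gene.

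Per transcript length, in FPKM as deposited, the receptors Epha1 and Epha2 were the highest of the guidance genes, with group means of 74.8 and 63.9 FPKM at control 72 h. Ephb4 followed with 40.9 FPKM at control 96 h, then Plxna1 with 26.9, Sema6a with 25.9, Unc5b with 21.6, Slit3 with 21.3 and Plxnb2 with 20.9 FPKM in the highest group of each. Efna1, Plxna2 and Epha4 reached 18.1, 17.1 and 16.7 FPKM at control 96 h. Ntn3 is listed at 0 FPKM in all libraries except 2 of control 72 h, at 1.93 and 1.81 FPKM, so its calls on counts are uncertain. Ntn5 stayed at or under 0.118 FPKM throughout. Levels of Epha1, Plxna1, Efna3, Efna4, Sema4c and Ntn5 carry some uncertainty, since 6.0 to 23.4% of their exon bases are shared with another annotated gene.

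In mm10 coordinates, 3 of the 5 A ephrins are neighbours on chromosome 3, Efna1 at 89271733 to 89281142, Efna3 at 89313899 to 89322965 and Efna4 at 89333390 to 89338028, all on the reverse strand. At 96 h all 3 were lower in early gastruloids, by -3.74, -0.75 and -0.74 on the log2 scale. Efna5, on chromosome 17, was lower as well, with group means of 6.83 CPM at early 96 h and 13.1 CPM at control 96 h. So were 64.2% of all guidance genes tested, and the part of position in these values was not tested. Robo4, on chromosome 9 at 37401897 to 37415115 on the forward strand, lies beside Robo3, at 37415669 to 37433246 on the reverse strand. Robo3 had 0.677, 1.23 and 0.572 CPM in early 48 h libraries and 0.611, 0.643 and 1.03 CPM in control 48 h libraries, which overlapped, where Robo4 differed 30.3-fold.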

How the data were processed

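RNA was read by polyA stranded mRNA sequencing. The deposited counts are whole numbers per gene, made by the authors, and the authors' FPKM values are reads scaled to transcript length and library size; cutadapt 4.0, STAR 2.7.8a, Cufflinks 2.2.1 and the mm10 build are named in the submitters' processing notes, while the settings of the counter are not given in the labels or file headers. The labels name 2 preparation codes without assigning them to libraries, so a preparation batch and the groups cannot be told apart. Samples were grouped by title and treatment label. Counts were fitted with edgeR 4.0.16 (R 4.3.3) over all 18 libraries: filterByExpr, TMM, a quasi-likelihood fit on 6 groups, 9 pairwise contrasts and 2 interactions, with Benjamini-Hochberg adjustment over 16041 genes and calls at an adjusted p under 0.05. The SE is the log2 fold change divided by the square root of F, and near 0 counts it can understate the uncertainty. Library totals set the precision, and values of a few counts are imprecise. The fit was tested on simulated data. Alternatives used DESeq2 1.42.0 and limma 3.58.1 on log2(FPKM + 1) and log2(FPKM + 0.1), where a pseudocount shrinks the change of low genes. The FPKM table, named by GENCODE M21 genes, held all 70 guidance genes at the same coordinates. Other tools were Python 3.11.15, numpy 2.4.6, pandas 2.3.3 and matplotlib 3.10.9.

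The guidance genes, the other lists and the rules were chosen with earlier results of these data known. Named genes were, per pairwise comparison, the 8 largest rises and 8 largest falls among those called with at least 2 CPM in the higher group and no overlap between libraries; per interaction, the 5 largest called with at least 5 CPM in 1 of its own groups; and a panel of main family members described whatever their values. The other pathway genes were co-receptors, modulators and effectors.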

Additional observations from a re-analysis of the deposited data

Results flagged for a closer look

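For 5 guidance genes the change over the day after the pulse differed between the arms by an interaction test in edgeR, taking the largest called differences with at least 5 CPM in 1 of the 4 groups the test uses. The ages differ by a day between the arms, so arm and age cannot be told apart. As early minus control on the log2 scale, the difference was -4.91 for Plxna2, -4.80 for Sema3a, -3.73 for Robo4, -3.69 for Epha4 and -3.26 for Efna1. The Epha4 value was -4.37 without control 72 h replicate 3, and the Robo4 value was -4.56 without the 3 control libraries numbered 3. The Sema3a value was -2.96 without control 96 h replicate 3, and its call was lost under 8 of 29 settings.

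For 5 genes the difference between the arms at 96 h differed from that at 72 h by the same kind of test. Both tests contain the control 96 h over control 72 h change, so genes in both lists are not independent results. On the log2 scale the value was -4.62 for Sema3a, -4.30 for Plxna2, -3.85 for Unc5c, -3.59 for Efna1 and -3.42 for Ephb1. The Sema3a value was -2.79 without control 96 h replicate 3, with the call lost under 12 of 29 settings, and the Unc5c call was lost without early 72 h replicate 2 (-3.42, adjusted p = 0.112).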

How the results depend on the processing

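Of 405 gene and comparison results tried under 29 alternatives, 323 were called under all of them and 82 were lost under at least 1, and none changed sign while called. The filter of at least 1 CPM in 3 libraries gave no value for Plxna4, Robo3 or Sema3g, which did not pass it. The count of guidance genes called in early over control at 48 h was 32 and became 21 on log2(FPKM + 1), both with the count filter and with all genes above 0. The interaction over the day after the pulse had 47 calls and 31 at an adjusted p under 0.01. Leaving out 1 library at a time gave early over control counts between 24 and 38 at 48 h, between 30 and 40 at 72 h and between 51 and 57 at 96 h. It gave 40 to 50 for control 72 h over control 48 h, 52 to 61 for control 96 h over control 72 h, 27 to 40 for early 72 h over early 48 h, 24 to 40 for early 96 h over early 72 h, 40 to 51 for early 48 h over control 72 h, 56 to 60 for early 72 h over control 96 h, 41 to 47 for the interaction after the pulse and 35 to 45 for the interaction between ages. Without the 3 control libraries numbered 3, the early over control counts were 40 at 48 h, 41 at 72 h and 58 at 96 h. Steps within the early arm compare no control library, yet their counts moved as well, because the spread is shared. They went from 32 to 42 for early 72 h over early 48 h and from 30 to 41 for early 96 h over early 72 h. These counts are given without the share of all genes called under the same settings, so they show only how the calls depend on the setting. Deviations of same-numbered replicates from their group means were at most weakly correlated (45 correlations between -0.06 and 0.16, 3 over 0.1). The largest was between the control 48 h and control 72 h libraries numbered 3. These were taken over all tested genes, where counting noise in low genes pulls a correlation towards 0, so they cannot decide whether the numbers pair the libraries. The replicate block gave 34, 34 and 54 calls for early over control at 48, 72 and 96 h. The causes were not tested. Calls of genes under 2 CPM rest on few counts, so a missing call there may reflect depth.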
